A study of Mus musculus with 12 samples.

Results

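The immunoglobulin heavy chain variable (Ighv) genes were described in 12 mouse spleen libraries. Members were the annotated Ighv genes of type IG_V_gene with at least 10 counts summed over the 12 libraries. This took in 110 of 113 such genes, out of 53715 gene identifiers counted. The members nearest the count minimum were Ighv8-13, Ighv6-7 and Ighv1-62-3, with 14, 27 and 31 counts in all, and those left out were Ighv1-62-1, Ighv1-16 and Ighv16-1, with 1, 4 and 4. Annotated pseudogenes and leader-type entries of the same locus (70 and 2) were not members.

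All libraries came from one genotype, named Yaa DKO: BXSB.Cg-Cd8atm1Mak Il15tm1Imx Yaa, which joins targeted alleles of Cd8a and Il15 with the lupus-associated Yaa background. There were 4 libraries from spleens at 10 weeks of age with 2-deoxyglucose (2DG), a glucose analogue that inhibits glycolysis, at 6 g/L in drinking water taken freely. A further 4 came from untreated spleens at 10 weeks, which the study calls symptomatic, and 4 from untreated spleens at 6 weeks, before symptoms. No group lacked the targeted alleles or the Yaa background, so what these add cannot be read from the comparisons. The sources used here do not give the age at which 2DG began. The labels name separate samples without stating that each was its own mouse, so the p-values set group differences against a spread that may be partly technical. Replicates keep the labels' numbers: 9 to 12 with 2DG, 5 to 8 untreated at 10 weeks, and 1 to 4 untreated at 6 weeks.

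An antibody heavy chain gene is assembled in the developing B cell when a variable (V) segment is joined to a diversity (D) and a joining (J) segment, upstream of the constant region exons. A B cell normally expresses a single rearranged heavy chain, and its offspring carry the same V segment, so the V segments counted in a tissue reflect which B cell and plasma cell clones contribute RNA. Plasma cells, the antibody-secreting end stage, hold far more immunoglobulin RNA per cell than resting B cells. In bulk spleen RNA, fewer cells of a type and less RNA per cell cannot be told apart.

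The V segments are near relatives in sequence. The 110 members lay on chromosome 12 between 113578504 and 116000461 (GRCm38), all on the minus strand, and fell into 15 families. The Ighv1 family held 51 members, Ighv5 held 10, Ighv2 and Ighv8 held 9 each, and Ighv3 held 6. In the GENCODE M21 transcripts, 109 of the 110 were annotated with 2 exons, a leader exon and the V exon, which was 301 to 351 bases long with a median of 305. The V exon of a member was a median of 95.3% identical to its nearest other member (range 74.4 to 100%). The nearest member was in the same family for 106 of 110. Members of the same family had a median identity of 85.2% and members of different families 58.7%. For 62 members the nearest relative was at least 95% identical, and Ighv1-62-2 and Ighv1-71 were identical throughout the V exon. The sources used here do not say how reads shared by such genes were divided, so values of single members with close relatives are uncertain.

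The last 294 bases of the V exon are shown for 5 members that the results turn on: Ighv1-26, which had the largest difference in CPM at 10 weeks, 2 close relatives of it, and Ighv4-1 with Ighv11-2, whose families took larger shares of usage with 2DG than untreated at 10 weeks. In Ighv1-26 and Ighv4-1 capitals mark the word TATTACTGT, which codes for the Tyr-Tyr-Cys residues at the end of framework region 3, just before the junction with D and J. In Ighv1-18 and Ighv1-22 capitals mark each base that differs from Ighv1-26, with 8 differences for Ighv1-18 (97.3% identity) and 11 for Ighv1-22 (96.3%). Ighv11-2 does not hold the word and is all in lower case.
Ighv1-26 (chr12:114788372-114788665, GRCm38, minus strand): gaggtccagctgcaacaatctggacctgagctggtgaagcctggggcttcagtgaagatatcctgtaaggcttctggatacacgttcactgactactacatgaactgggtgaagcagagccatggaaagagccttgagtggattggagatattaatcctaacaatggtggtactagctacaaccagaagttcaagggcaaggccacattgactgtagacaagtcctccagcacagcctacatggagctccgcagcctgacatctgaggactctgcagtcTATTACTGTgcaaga
Ighv1-18 (chr12:114682632-114682925, GRCm38, minus strand): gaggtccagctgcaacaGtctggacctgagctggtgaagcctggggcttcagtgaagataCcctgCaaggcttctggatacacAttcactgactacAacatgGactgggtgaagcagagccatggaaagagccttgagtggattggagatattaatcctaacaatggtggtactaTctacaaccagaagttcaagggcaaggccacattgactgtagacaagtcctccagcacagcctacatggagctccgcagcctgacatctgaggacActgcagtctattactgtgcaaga
Ighv1-22 (chr12:114746273-114746566, GRCm38, minus strand): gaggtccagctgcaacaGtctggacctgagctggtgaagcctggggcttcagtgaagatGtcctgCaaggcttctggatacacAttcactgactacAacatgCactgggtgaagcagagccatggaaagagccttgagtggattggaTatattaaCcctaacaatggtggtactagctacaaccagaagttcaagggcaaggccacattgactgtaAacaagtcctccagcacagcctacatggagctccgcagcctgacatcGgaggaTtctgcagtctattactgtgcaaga
Ighv4-1 (chr12:113948282-113948575, GRCm38, minus strand): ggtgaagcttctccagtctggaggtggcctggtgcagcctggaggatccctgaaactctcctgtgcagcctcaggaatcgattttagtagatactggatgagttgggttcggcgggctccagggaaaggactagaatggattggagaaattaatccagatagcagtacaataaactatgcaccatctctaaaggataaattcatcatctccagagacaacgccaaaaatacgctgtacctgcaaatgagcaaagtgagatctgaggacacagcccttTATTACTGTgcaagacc
Ighv11-2 (chr12:114048241-114048534, GRCm38, minus strand): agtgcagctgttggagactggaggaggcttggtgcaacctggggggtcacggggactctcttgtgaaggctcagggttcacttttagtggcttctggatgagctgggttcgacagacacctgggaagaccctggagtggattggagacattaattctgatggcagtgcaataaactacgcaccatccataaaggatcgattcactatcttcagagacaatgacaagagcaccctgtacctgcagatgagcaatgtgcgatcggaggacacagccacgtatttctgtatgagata
The word TATTACTGT was present on the sense strand in the V exons of 63 of 110 members (57.3%), and searching both strands added none. It was present in the last 305 bases of 0.356% of all 130829 annotated transcripts of that length or more, and in 0.523% on either strand. No other word was searched for.

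Libraries held 21581820 to 23835453 counts with 2DG, 20692818 to 26079979 untreated at 10 weeks and 15596040 to 22480545 at 6 weeks. Members took 38553 to 62848 of these with 2DG, 128779 to 277117 untreated at 10 weeks and 40166 to 121046 at 6 weeks. Each library held counts for 105 to 110 of the 110 members. The untreated 10-week library of replicate 8 stood apart from the other 3 of its group, with the lowest value of that group for 70 of 110 members. Results that rest on it are given with and without it. Markers of the labelled tissue were present: all 14 mature B cell and all 10 T cell markers passed the filter on low counts.

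Ighv transcripts were lower with 2DG than in untreated spleens at 10 weeks, as a sum and in most members. The summed level of the 110 genes, in CPM (counts scaled to library size by TMM normalisation), was 2645, 1656, 1669 and 2364 in 2DG replicates 9 to 12, against 12104, 12168, 11430 and 5490 in untreated replicates 5 to 8 at 10 weeks. At 6 weeks it was 5362, 3879, 3743 and 2465 in replicates 1 to 4. Every 2DG library was below every untreated 10-week library, and every untreated 10-week library was above every 6-week library, though replicate 8 exceeded the highest 6-week library only narrowly. The 2DG and 6-week libraries overlapped. Means were 2084 ± 500 CPM with 2DG, 10298 ± 3223 CPM untreated at 10 weeks and 3862 ± 1185 CPM at 6 weeks (SD, n = 4 each). The log2 ratio of the means was -2.31 for 2DG over untreated at 10 weeks, 1.41 for untreated at 10 over 6 weeks and -0.89 for 2DG over 6 weeks. Without replicate 8 the first 2 of these were -2.51 and 1.62. No test was made on the sum, because its members were chosen with results known.

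**Figure D1:**
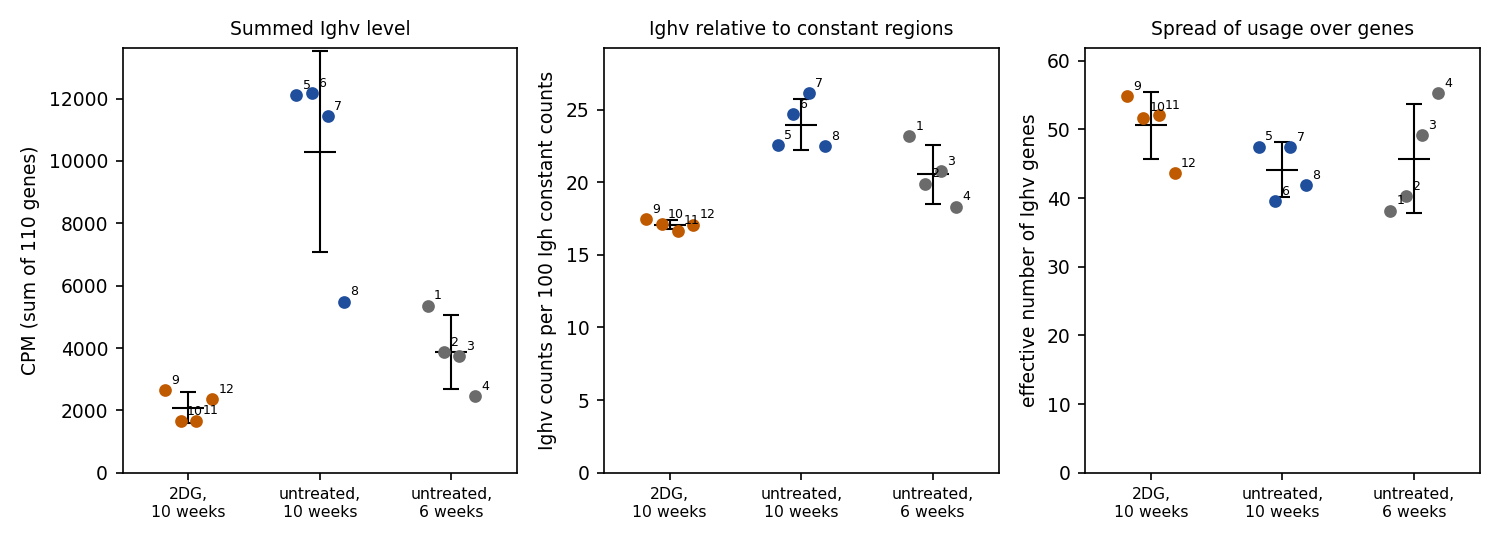
Left, summed CPM of the 110 Ighv genes; middle, Ighv counts per 100 heavy chain constant region counts; right, effective number of Ighv genes in use; each point is a library labelled with its replicate number, with the group mean and SD (n = 4). The 2DG libraries lie between 1656 and 2645 CPM and between 16.7 and 17.4 per 100 constant counts, below all untreated 10-week libraries in both, while the effective numbers of the 3 groups overlap.

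The partners of the V segment moved in the same comparison. Summed kappa variable (Igkv) transcripts averaged 3419 ± 901 CPM with 2DG, 14037 ± 4597 CPM untreated at 10 weeks and 5376 ± 1488 CPM at 6 weeks (SD, n = 4 each). Ighv counts were 37.0 to 38.7% of Ighv and Igkv counts together with 2DG, 40.3 to 43.5% untreated at 10 weeks and 39.5 to 42.7% at 6 weeks, so the 2DG libraries lay below both untreated groups. Relative to the heavy chain constant regions, there were 17.4, 17.1, 16.7 and 17.1 Ighv counts per 100 constant counts in 2DG replicates 9 to 12, against 22.6, 24.7, 26.1 and 22.5 untreated at 10 weeks and 23.2, 19.9, 20.8 and 18.3 at 6 weeks. The 2DG libraries were again below every library of both untreated groups. IgM and IgD (Ighm and Ighd) made up 73.4 to 78.4% of constant region counts with 2DG, 15.1 to 45.2% untreated at 10 weeks and 48.2 to 70.2% at 6 weeks, and the part of this difference in the ratio of V to constant counts was not tested.

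Gene by gene, 41 of the 99 members that passed the filter on low counts were lower with 2DG than untreated at 10 weeks and 0 were higher (edgeR quasi-likelihood test, Benjamini-Hochberg adjusted p under 0.05 over all 18542 genes tested). At an unadjusted p under 0.05 there were 71 lower and 0 higher, against 24.5% of all genes in either direction. Over all genes tested, 5.26% were called lower and 2.16% higher. Without regard to the test, 94 members had a negative log2 change, against 48.2% of all genes, and 5 a positive one. All 4 2DG libraries were below all 4 untreated libraries for 38 members (7.91% of all genes) and above them for 0 (4.48%). The median log2 change of the 99 was -2.20, with a range of -5.35 to 1.16, against 0.01 for all genes. The filter of low counts kept 99 of 110 members, and the 11 others were Ighv1-23, Ighv1-24, Ighv1-62-3, Ighv2-7, Ighv5-12-4, Ighv6-5, Ighv6-7, Ighv7-2, Ighv8-9, Ighv8-13 and Ighv11-1.

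The count of 41 depended on which libraries entered. It was 55 without untreated replicate 8 but 13, 14 and 27 without 2DG replicate 11, 2DG replicate 10 or untreated replicate 5. Calls over all genes, in either direction, moved the same way: 1376 of 18542 with all libraries, 2209 of 18773 without untreated replicate 8, 514 of 18781 without 2DG replicate 11, 515 of 18737 without 2DG replicate 10 and 725 of 18865 without untreated replicate 5. Of the 41 genes, 13 were called in all 12 fits that left out a library. DESeq2 called 62 lower and 0 higher, among them all 41, next to 2304 of 20232 genes.

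**Figure D2:**
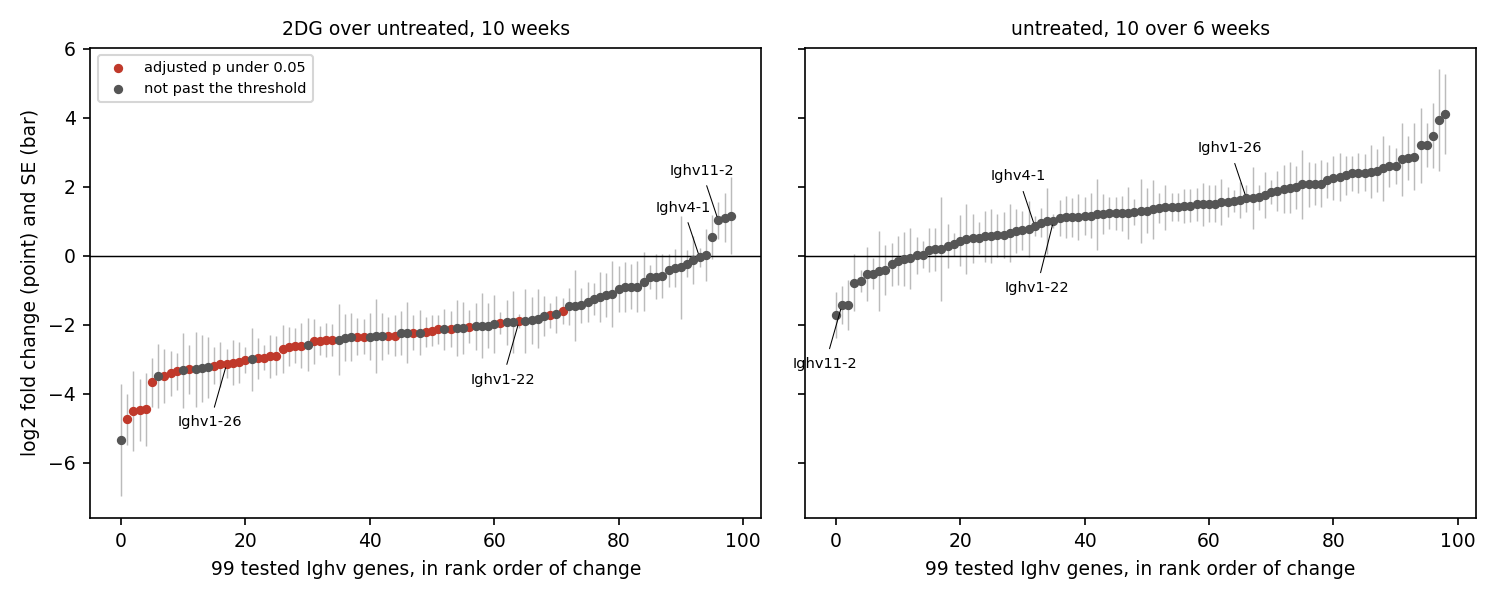
Log2 fold change (points) with SE (bars) of the 99 tested Ighv genes, in rank order within each comparison; red points passed an edgeR adjusted p of 0.05. For 2DG over untreated at 10 weeks 94 points lie below zero and 41 are red, all of them lower, whereas for untreated 10 over 6 weeks 86 lie above zero and none is red.

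Among families, the calls fell in 7 of 15. In Ighv1, the largest family, 23 of 48 tested members were lower and all 48 had negative log2 changes (median -2.35). In Ighv5 4 of 9 were lower, in Ighv3 4 of 6, in Ighv2 4 of 8, in Ighv14 3 of 4, in Ighv8 2 of 7 and in Ighv9 1 of 4. No tested member passed in Ighv4, Ighv6, Ighv7, Ighv10, Ighv11, Ighv12, Ighv13 or Ighv15, families with 1 to 3 tested members each and 13 in all. Among these 13, 3 were lower and 0 higher at an unadjusted p under 0.05, and DESeq2 called 1 lower and 0 higher. The 5 members with a positive log2 change were Ighv6-4, Ighv8-4, Ighv11-2, Ighv7-1 and Ighv8-5, none of which passed (smallest adjusted p = 0.286, for Ighv11-2, edgeR). Of the 41 called genes 25 had a relative at least 95% identical, as did 31 of the 58 tested genes that did not pass.

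Ighv1-26 (ENSMUSG00000094546.1, chromosome 12, 114788372 to 114788805) contributed most of any gene to the difference in summed CPM, 8.19% of the whole, as the mean sum fell by 8214 CPM with 2DG. Its CPM was 109, 82.2, 79.9 and 76.2 in 2DG replicates 9 to 12, against 696, 1281, 500.4 and 562 in untreated replicates 5 to 8 at 10 weeks, and 359, 164, 313 and 118 at 6 weeks. The 2DG libraries lay in a narrow band below all others, and the untreated 10-week libraries above all 6-week ones. Ighv1-26 was lower with 2DG than untreated at 10 weeks (log2 change -3.13, SE 0.42, edgeR adjusted p = 0.00290), and passed in all 12 fits without a library.

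Ighv1-22 (ENSMUSG00000094561.1, chromosome 12, 114746273 to 114746706), close to Ighv1-26 in the sequences shown, had the smallest adjusted p of the members. It stood at 33.8, 25.0, 34.5 and 29.6 CPM in 2DG replicates 9 to 12, against 122, 115, 121 and 97.5 CPM in untreated replicates 5 to 8, and 60.0, 31.7, 69.9 and 65.0 CPM at 6 weeks. The groups did not overlap at 10 weeks and the libraries of each were close together. The log2 change with 2DG was -1.89 (SE 0.21, edgeR adjusted p = 0.00176).

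Ighv1-18, the nearest relative of Ighv1-26, did not pass. It had 59.4, 34.5, 30.9 and 130 CPM in 2DG replicates 9 to 12, against 260, 274, 220 and 97.8 CPM in untreated replicates 5 to 8, so 2DG replicate 12 lay above untreated replicate 8. Its log2 change was -1.74 (SE 0.58, edgeR adjusted p = 0.0963), and it passed without 2DG replicate 12 (log2 change -2.35, adjusted p = 0.0402). Ighv1-18 and Ighv1-26 differ by 8 bases over the stretch shown, and whether reads of one were counted for the other cannot be read from the counts.

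Other members with small adjusted p included genes of the Ighv8 and Ighv5 families. Ighv8-8 (ENSMUSG00000104452.1, chromosome 12, 115294062 to 115294504) had 51.4, 49.2, 31.7 and 62.3 CPM in 2DG replicates 9 to 12, against 655, 364, 240 and 245 CPM in untreated replicates 5 to 8 (log2 change -2.95, SE 0.37, edgeR adjusted p = 0.00211). Ighv5-17 (ENSMUSG00000095571.2, chromosome 12, 113859149 to 113859670) had 36.1, 20.6, 23.2 and 23.5 CPM with 2DG, against 297, 145, 158 and 237 CPM untreated (log2 change -3.02, SE 0.39, edgeR adjusted p = 0.00243). In both genes every 2DG library was below every untreated library of either age. Ighv1-7 averaged 15.2 ± 1.88 CPM with 2DG and 59.0 ± 18.6 CPM untreated at 10 weeks (SD, n = 4 each; edgeR adjusted p = 0.00647). Ighv1-64 averaged 34.9 ± 14.5 CPM with 2DG and 316 ± 216 CPM untreated (edgeR adjusted p = 0.00798). These calls held in all 12 fits without a library.

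Ighv1-62-2 and Ighv1-71, identical in their V exons, were both called lower, on few counts. Summed, the pair had 9, 12, 5 and 11 counts in 2DG replicates 9 to 12, against 204, 84, 333 and 40 in untreated replicates 5 to 8 and 42, 14, 21 and 21 in replicates 1 to 4 at 6 weeks. As the reads of one cannot be told from those of the other over the V exon, their separate log2 changes of -4.74 and -3.66 cannot be assigned to one or the other.

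**Figure D3:**
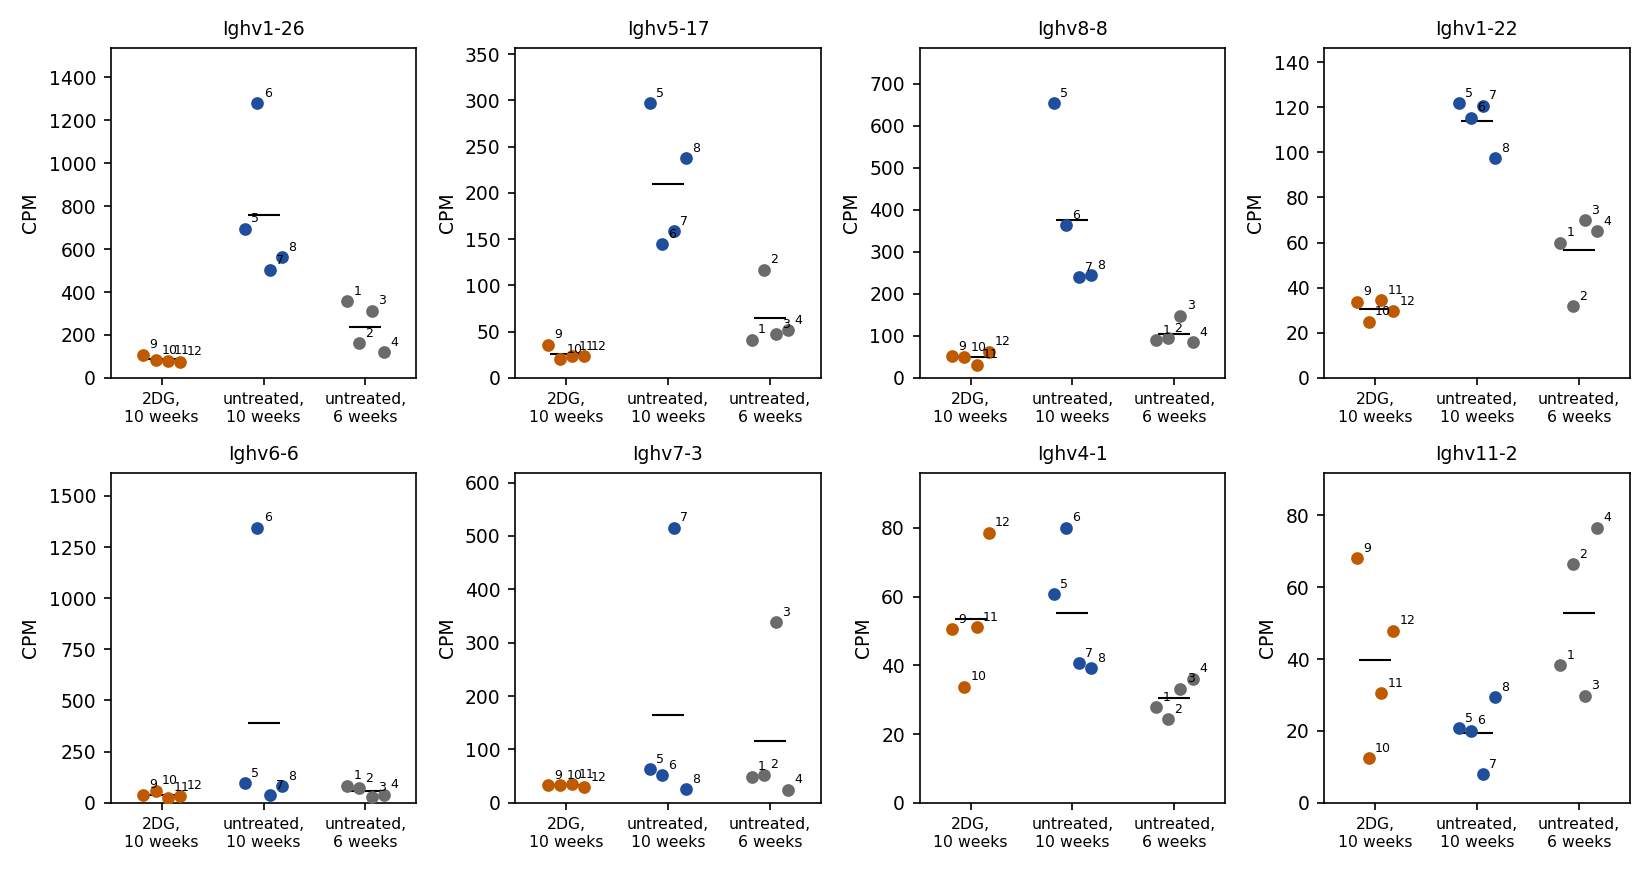
CPM of 8 Ighv genes in each library, labelled with its replicate number; horizontal bars are group means (n = 4). Ighv1-26, Ighv5-17, Ighv8-8 and Ighv1-22 are lower in every 2DG library than in every untreated 10-week library, Ighv6-6 and Ighv7-3 are high in single libraries, and for Ighv4-1 and Ighv11-2 the 10-week groups overlap.

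Several of the most counted genes gave calls that depended on single libraries. Ighv3-6 had 135, 78.3, 75.4 and 130 CPM in 2DG replicates 9 to 12, against 790, 222, 354 and 366 CPM in untreated replicates 5 to 8 at 10 weeks (log2 change -2.05, SE 0.48, edgeR adjusted p = 0.0314). The groups did not overlap, but the adjusted p was 0.0745 without untreated replicate 5, and 0.0546, 0.106, 0.0953 and 0.0521 without 2DG replicates 9, 10, 11 and 12. Ighv1-9 averaged 61.5 ± 39.7 CPM with 2DG and 373 ± 246 CPM untreated (SD, n = 4 each; edgeR adjusted p = 0.0394), and its groups overlapped between 2DG replicate 9 and untreated replicate 8. It missed the threshold in 7 of the 12 fits without a library, with adjusted p up to 0.124.

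Ighv1-19 averaged 40.9 ± 21.2 CPM with 2DG and 249 ± 135 CPM untreated at 10 weeks (SD, n = 4 each; edgeR adjusted p = 0.0155). Without 2DG replicates 10 and 11 in turn its adjusted p was 0.0619 and 0.0580. Ighv3-5 had 17.8, 6.19, 30.7 and 1.92 CPM in 2DG replicates 9 to 12, against 116, 707, 138 and 319 CPM in untreated replicates 5 to 8 (log2 change -4.50, SE 1.15, edgeR adjusted p = 0.0447). It missed the threshold in 8 of the 12 fits without a library, with adjusted p up to 0.136.

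Other highly counted members did not pass, and their untreated libraries were far apart. Ighv5-4, the most counted member over all libraries, had 255, 122, 191 and 189 CPM in 2DG replicates 9 to 12, against 302, 783, 1533 and 475 CPM in untreated replicates 5 to 8 and 941, 227, 47.0 and 44.2 CPM at 6 weeks. The 10-week groups did not overlap, yet the adjusted p was 0.218 (log2 change -2.03, SE 0.94, edgeR). Ighv9-3 had 51.8, 34.4, 34.2 and 31.4 CPM with 2DG, against 892, 222, 204 and 102 CPM untreated at 10 weeks and 161, 534, 69.7 and 56.0 CPM at 6 weeks (2DG over untreated at 10 weeks, log2 change -3.23, SE 0.88, edgeR adjusted p = 0.0541). Every 2DG library of Ighv9-3 was below every untreated library of both ages. Without untreated replicate 8 its adjusted p was 0.0320, and without 6-week replicate 2 it was 0.0311. Ighv6-3 averaged 142 ± 125 CPM with 2DG and 212 ± 93.4 CPM untreated at 10 weeks (edgeR adjusted p = 0.638), with 2DG replicate 12 at 328 CPM above all 4 untreated libraries.

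A further set of members, none of which passed, was followed for known roles or use. Ighv11-2 and Ighv12-3 are known in the mouse for B-1 cell antibodies against phosphatidylcholine, Ighv7-1 for the T15 antibodies against phosphorylcholine, Ighv1-72 for the response to the hapten NP, and Ighv5-2 for its place as the first V segment on the D side. Ighv12-3 averaged 5.03 ± 3.49 CPM with 2DG and 9.45 ± 10.9 CPM untreated at 10 weeks (edgeR adjusted p = 0.501), Ighv7-1 averaged 23.4 ± 8.11 CPM with 2DG and 16.0 ± 16.4 CPM untreated (adjusted p = 0.654, edgeR), and Ighv5-2 averaged 4.99 ± 3.00 CPM with 2DG and 6.40 ± 1.57 CPM untreated (edgeR adjusted p = 0.750; SD, n = 4 each). Ighv1-72 averaged 2.14 ± 1.29 CPM with 2DG and 12.9 ± 12.2 CPM untreated (log2 change -2.58, SE 0.77, edgeR adjusted p = 0.0708), and passed without untreated replicate 8 (adjusted p = 0.0157).

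For Ighv11-2 and Ighv4-1 the levels of the 10-week groups overlapped. Ighv11-2 (ENSMUSG00000096108.2, chromosome 12, 114048241 to 114048812) had 68.1, 12.5, 30.5 and 47.9 CPM in 2DG replicates 9 to 12, against 20.8, 20.1, 7.88 and 29.4 CPM in untreated replicates 5 to 8 and 38.4, 66.4, 29.8 and 76.6 CPM at 6 weeks. Untreated 10-week libraries were below all 6-week libraries and overlapped those with 2DG. The log2 change was 1.03 for 2DG over untreated at 10 weeks (SE 0.55, edgeR adjusted p = 0.286) and -1.43 for untreated 10 over 6 weeks (SE 0.55, adjusted p = 0.225). Its nearest member, Ighv11-1, is 98.7% identical in the V exon and had too few counts to be tested. Ighv4-1 (ENSMUSG00000076655.2, chromosome 12, 113948282 to 113948796) had 50.5, 33.8, 51.0 and 78.6 CPM with 2DG, against 60.6, 80.1, 40.7 and 39.2 CPM untreated at 10 weeks and 27.8, 24.4, 33.2 and 36.1 CPM at 6 weeks. For Ighv4-1 neither 10-week group stood above the other (log2 change -0.04, edgeR adjusted p = 0.947).

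Between 6 and 10 weeks without treatment, most members had higher levels at 10 weeks but 0 of 99 passed with edgeR (over all genes, 0.00539% were called lower and 0% higher). At an unadjusted p under 0.05 there were 51 higher and 3 lower, 54 in all, against 17.1% of all genes in either direction. The log2 change was positive for 86 members, against 51.5% of all genes, with a median of 1.30 against 0.01 for all genes. All 4 untreated 10-week libraries were above all 4 6-week libraries for 18 members (3.64% of all genes) and below them for 1, Ighv11-2 (3.33%). The smallest adjusted p was 0.0908 (Ighv1-62-2). Without untreated replicate 8 there were 31 members higher (1563 of 18773 genes called), and DESeq2 on all libraries called 32 higher (682 of 18117 genes called).

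Ighv1-26 again had the largest difference of any member, 8.10% of the 6436 CPM by which the 10-week mean exceeded that at 6 weeks (log2 change 1.67, SE 0.39, edgeR adjusted p = 0.111, and 0.0370 without untreated replicate 8). Ighv1-64 averaged 316 ± 216 CPM at 10 weeks and 52.1 ± 12.8 CPM at 6 weeks without overlap (SD, n = 4 each; log2 change 2.60, SE 0.52, edgeR adjusted p = 0.0934). Ighv8-8 averaged 376 ± 195 CPM at 10 weeks and 104 ± 29.6 CPM at 6 weeks, also without overlap (edgeR adjusted p = 0.0917). Without untreated replicate 8 their adjusted p-values were 0.00876 and 0.0128.

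The comparison of 2DG at 10 weeks with untreated spleens at 6 weeks called 0 of 99 members with edgeR (over all genes 0.0917% lower and 0.0378% higher), and it shares its libraries with both comparisons above. The log2 change was negative for 87 members, against 50.5% of all genes, with a median of -0.74 against 0.00 for all genes. At an unadjusted p under 0.05 there were 19 lower and 1 higher, against 16.9% of all genes in either direction. All 2DG libraries were below all 6-week libraries for 15 members (7.69% of all genes) and above them for 0 (7.98%). The smallest adjusted p was 0.0903, for Ighv1-22 (log2 change -0.88, SE 0.21, edgeR), which passed without 6-week replicate 2 (adjusted p = 0.00815). DESeq2 called 12, with 11 lower and 1 higher, next to 902 of 16001 genes. Ighv4-1 had the highest log2 change of the 99, 0.82 (edgeR adjusted p = 0.177).

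Usage is the share of a library's Ighv counts taken by a gene or family. It is relative to the total, so a gene at an equal level takes a larger share where the total is lower. Usage was not divided by gene length. Dividing by V exon length left the most counted gene the same in 12 of 12 libraries. It moved no member's usage by more than 0.214 percentage points in any library. Family shares were described and not tested. The Ighv1 family took the most in every group, with 41.3 ± 3.82% with 2DG, 45.7 ± 5.78% untreated at 10 weeks and 39.7 ± 6.95% at 6 weeks (SD, n = 4 each), next to 46.4% of the members. Ighv5 took 17.6 ± 1.99% with 2DG, 17.3 ± 7.03% untreated at 10 weeks and 15.3 ± 6.13% at 6 weeks, next to 9.09% of the members. The groups overlapped for both. Ighv3 took 6.95 ± 0.966% with 2DG, 10.2 ± 2.93% untreated at 10 weeks and 6.98 ± 1.35% at 6 weeks, again with overlap.

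Of the 15 families, 3 had shares with 2DG that did not overlap those of untreated spleens at 10 weeks, all higher with 2DG. Taken singly, 9 of the 110 members had usage above and 3 had usage below without overlap in that comparison. Usage with 2DG was above both untreated groups for 2 members and below both for 0. Ighv4, which is Ighv4-1 alone, took 1.91, 2.04, 3.06 and 3.33% in 2DG replicates 9 to 12, against 0.501, 0.658, 0.356 and 0.714% in untreated replicates 5 to 8 and 0.518, 0.628, 0.888 and 1.47% at 6 weeks. Its 2DG shares were thus above those of both untreated groups, although the levels of Ighv4-1 overlapped at 10 weeks. The mean level of Ighv4-1 was 53.5 CPM with 2DG and 55.1 CPM untreated at 10 weeks, while the summed Ighv level was lower with 2DG. Ighv11 took 0.786 to 2.58% with 2DG, 0.0689 to 0.541% untreated at 10 weeks and 0.719 to 3.12% at 6 weeks, and Ighv10 took 1.65 to 3.42% with 2DG, 0.829 to 1.51% untreated at 10 weeks and 1.71 to 6.16% at 6 weeks. For both, the untreated 10-week libraries were below all others and the 2DG and 6-week libraries overlapped. Ighv9 took 2.26 to 3.35% with 2DG and 3.92 to 14.5% at 6 weeks, without overlap, and overlapped both with its 2.28 to 8.06% untreated at 10 weeks.

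**Figure D4:**
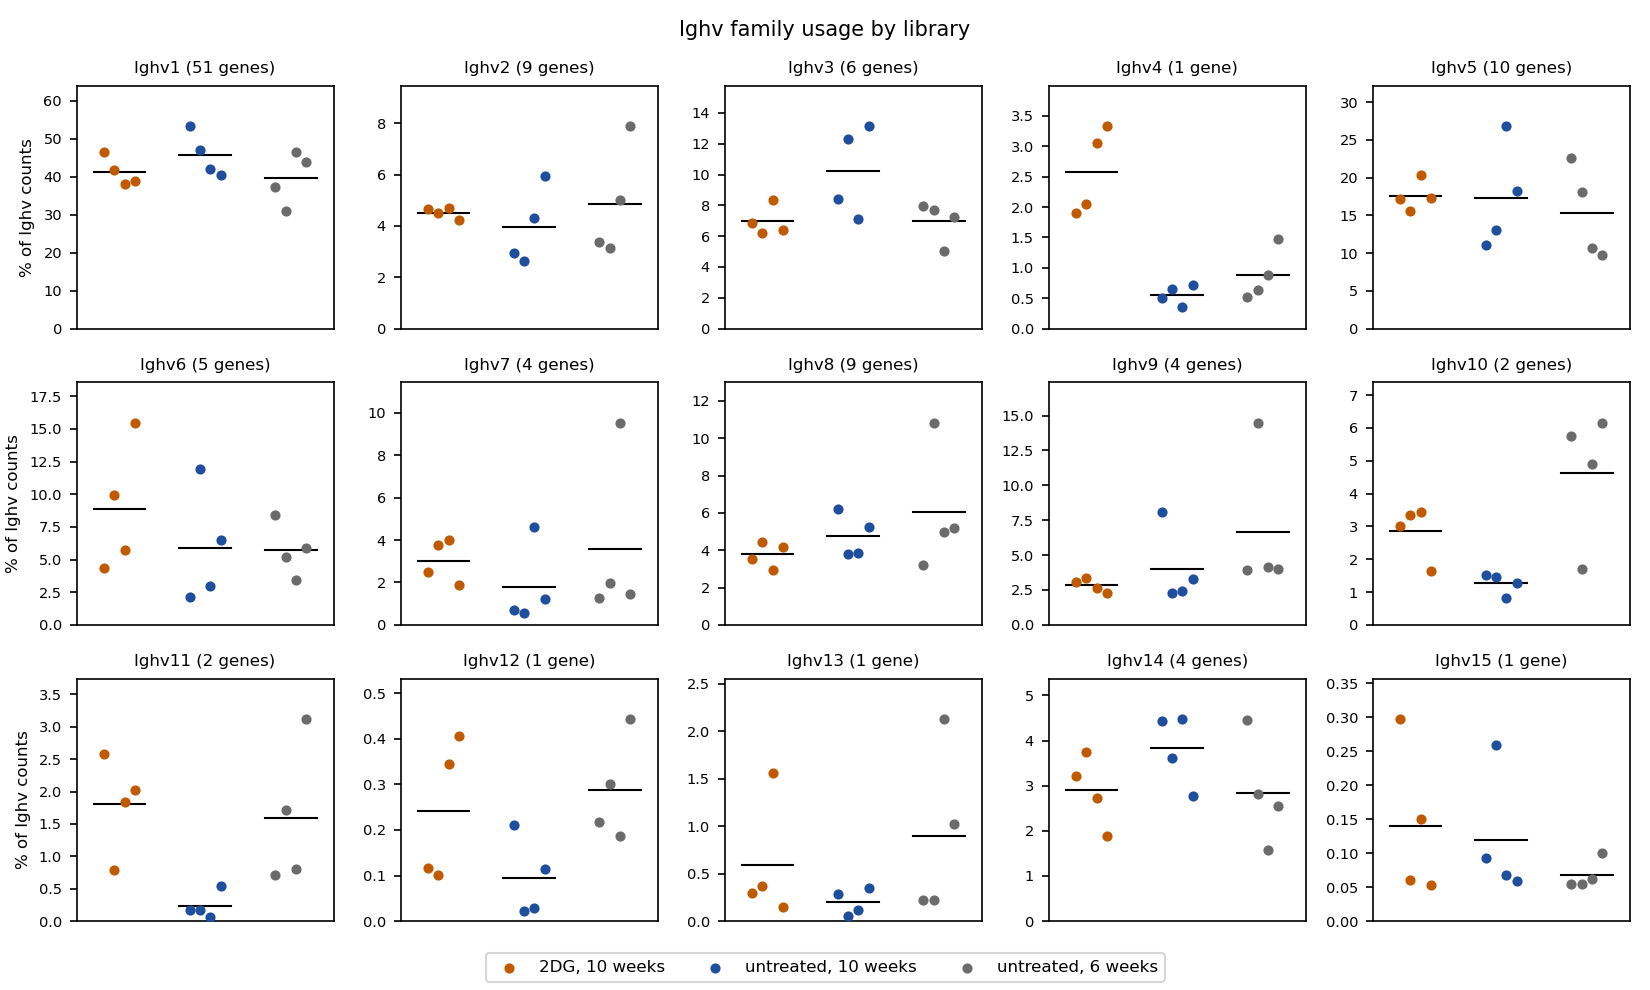
Share of each library's Ighv counts taken by the 15 families; points are libraries, lines are group means (n = 4), and each panel has its own axis from 0. For Ighv4 the 2DG libraries (1.91 to 3.33%) lie above all untreated libraries, for Ighv10 and Ighv11 the untreated 10-week libraries lie below the rest, and for Ighv1 and Ighv5 the groups overlap.

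The most counted gene differed between libraries. With 2DG it was Ighv5-4 in replicates 9, 10 and 11, at 9.63, 7.39 and 11.5% of Ighv counts, and Ighv6-3 in replicate 12, at 13.9%. In untreated spleens at 10 weeks it was a different gene in each library, Ighv9-3 (7.37%), Ighv6-6 (11.1%), Ighv5-4 (13.4%) and Ighv1-26 (10.2%) in replicates 5 to 8. It was likewise different in each at 6 weeks, with Ighv5-4 (17.5%), Ighv9-3 (13.8%), Ighv7-3 (9.04%) and Ighv3-6 (5.31%) in replicates 1 to 4. The effective number of genes, the exponential of the Shannon entropy of usage, was 54.8, 51.7, 52.1 and 43.7 in 2DG replicates 9 to 12, against 47.5, 39.6, 47.5 and 41.8 in untreated replicates 5 to 8 and 38.2, 40.3, 49.2 and 55.3 at 6 weeks. The 3 groups overlapped, with means of 50.6 with 2DG, 44.1 untreated at 10 weeks and 45.7 at 6 weeks. Thinning each library to 38553 Ighv counts left these means the same to 3 digits.

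The usage profiles of the 2DG libraries were nearer to each other than those of untreated libraries of one age. Bray-Curtis distance, which is 0 for equal profiles and 1 for profiles that share no gene, was 0.196 to 0.272 over the 6 pairs of 2DG libraries. It was 0.303 to 0.371 over the 6 pairs of untreated libraries at 10 weeks and 0.343 to 0.456 over those at 6 weeks. The 2DG range lay below both untreated ranges, which overlapped each other. Between groups the median distance was 0.324 for 2DG and untreated 10-week libraries, 0.324 for 2DG and 6-week libraries and 0.374 for untreated 10-week and 6-week libraries. Pairs share libraries, so these are descriptions without a test.

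Some members were much higher in 1 library than in any other. For 11 members with at least 100 counts in the highest library, that library was at least 3 times the next highest of the 12. In 9 of these the library was untreated at 10 weeks (2, 2 and 5 in replicates 5, 6 and 7), in 2 it was 6-week replicate 1, and in 0 it had received 2DG. Libraries were compared in CPM, and the summed level was lower with 2DG, so the 0 does not describe single-library dominance within the 2DG group. There, Ighv6-3 was at 328 CPM in replicate 12 against 74.9, 104 and 60.1 CPM in replicates 9, 10 and 11. Ighv6-6 was at 1345 CPM in untreated replicate 6, 14.1 times the next library at 95.7 CPM. Ighv1-49 was at 124 CPM in untreated replicate 5, 25.6 times the next, and Ighv1-34 was at 86.2 CPM in untreated replicate 7, 13.0 times the next. None of these 3 passed for 2DG over untreated at 10 weeks, where their groups overlapped (edgeR adjusted p = 0.0936 for Ighv6-6, 0.0754 for Ighv1-49 and 0.0926 for Ighv1-34). Ighv7-3 was high in 2 libraries, 516 CPM in untreated replicate 7 at 10 weeks and 338 CPM in 6-week replicate 3, against 24.7 to 62.4 CPM in the other untreated libraries and 28.7 to 34.7 CPM with 2DG. In all, the highest of the 12 libraries was an untreated 10-week one for 90 members, a 6-week one for 16 and a 2DG one for 4. This ranking is also of CPM and carries the difference in summed level.

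**Figure D5:**
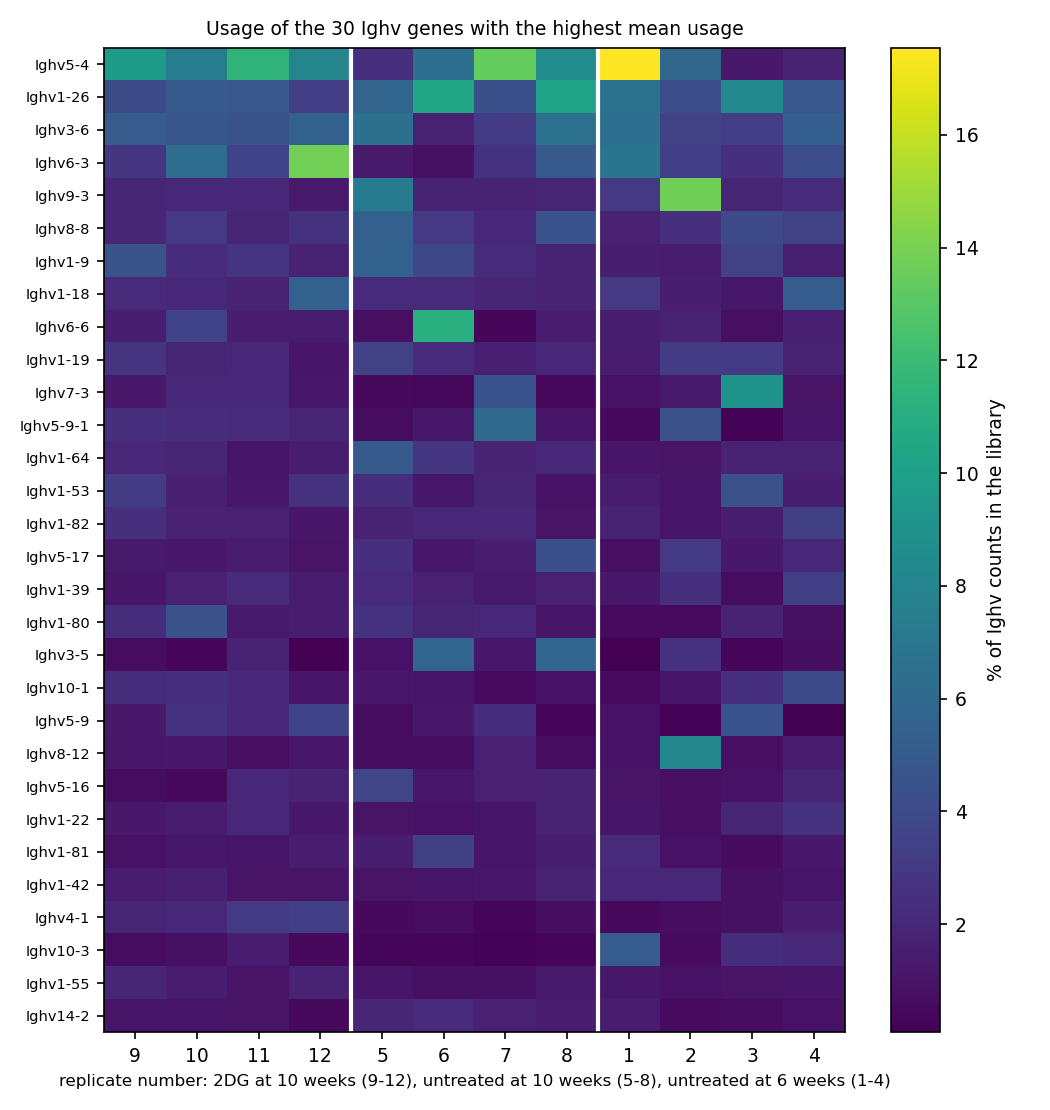
Percent of a library's Ighv counts (colour) for the 30 genes with the highest mean usage (rows) in the 12 libraries (columns, by replicate number, 2DG then untreated 10 weeks then untreated 6 weeks). Single bright cells mark genes that dominate one library, such as Ighv6-6 in untreated replicate 6 (11.1%) and Ighv5-4 in 6-week replicate 1 (17.5%).

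The groups overlapped in usage by position in the locus. Ordered from the D side, the first 37 members (from Ighv5-2 to Ighv3-5, with 0 Ighv1 genes) took 36.3 ± 3.71% of Ighv counts with 2DG, 36.4 ± 7.20% untreated at 10 weeks and 37.0 ± 6.70% at 6 weeks (SD, n = 4 each). The middle 37 members took 40.7 ± 2.82% with 2DG, 37.0 ± 6.49% untreated at 10 weeks and 39.5 ± 6.46% at 6 weeks. The 36 farthest from the D segments took 23.0 ± 4.43% with 2DG, 26.6 ± 5.15% untreated at 10 weeks and 23.5 ± 2.68% at 6 weeks.

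Other gene lists around the heavy chain were read from the same fit for 2DG against untreated spleens at 10 weeks. Of 14 plasma cell markers 12 were lower and 0 higher, with all 14 log2 changes negative and a median of -1.37 (5.26% of all genes were lower, median 0.01). Their summed level was 2513 to 3635 CPM with 2DG, 5000 to 8599 CPM untreated at 10 weeks and 3382 to 5557 CPM at 6 weeks. Sdc1, the plasma cell surface proteoglycan CD138, averaged 16.7 ± 3.90 CPM with 2DG and 60.0 ± 15.3 CPM untreated (log2 change -1.84, SE 0.23, edgeR adjusted p = 0.00176). Of 14 mature B cell markers 0 were lower and 0 higher (edgeR), with 0 lower and 1 higher at an unadjusted p under 0.05 and by DESeq2. The log2 change was negative for only 1 of these 14, against 48.2% of all genes, with a median of 0.22. Their summed level was 9778 to 11021 CPM with 2DG, 7325 to 11519 CPM untreated at 10 weeks and 9878 to 11173 CPM at 6 weeks. Of 10 T cell markers 0 passed either (2 lower at an unadjusted p under 0.05, 0 by DESeq2), with summed levels of 594 to 813 CPM with 2DG, 663 to 819 CPM untreated at 10 weeks and 668 to 861 CPM at 6 weeks. Plasma cell markers were thus lower in the same comparison as the Ighv sum, none of them at 0, and their part in it was not tested. By library the order differed. Untreated replicate 6 had the highest Ighv sum, 12168 CPM, but the lowest plasma cell sum of its group, 5000 CPM. Plasma cell sums of untreated 10-week and 6-week libraries overlapped, whereas their Ighv sums did not. Beside these marker counts, 2.16% of all genes were called higher and 24.5% reached an unadjusted p under 0.05 in either direction (edgeR).

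Of the heavy chain constant genes, 3 of 8 were lower with 2DG: Ighg2b, Ighg2c and Ighg3 (5.26% of all genes were lower). At an unadjusted p under 0.05, and by DESeq2, 5 were lower and 0 higher. Ighg3 had 301, 82.2, 116 and 50.4 CPM in 2DG replicates 9 to 12, against 5255, 3996, 5986 and 1255 CPM in untreated replicates 5 to 8 (log2 change -4.91, SE 0.97, edgeR adjusted p = 0.0162). Ighm had 10437, 6176, 6718 and 9467 CPM with 2DG, against 20174, 14592, 5710 and 9894 CPM untreated, overlapping (log2 change -0.62, SE 0.33, edgeR adjusted p = 0.289), and Ighd averaged 1073 ± 99.3 CPM with 2DG and 1033 ± 103 CPM untreated (SD, n = 4 each; edgeR adjusted p = 0.772). Ighg1, Igha and Ighe did not pass (adjusted p = 0.0740, 0.0709 and 0.866, edgeR). The 10-week groups of Ighg1 did not overlap, with 484 to 811 CPM with 2DG and 1107 to 5289 CPM untreated. Of 11 J and D segments 6 were tested and 5 were lower, Ighj1, Ighj2, Ighj3, Ighj4 and Ighd1-1. There were 5 lower at an unadjusted p under 0.05 and 6 by DESeq2, with 0 higher. Ighj1 averaged 26.5 ± 7.56 CPM with 2DG and 247 ± 89.1 CPM untreated (log2 change -3.22, SE 0.38, edgeR adjusted p = 0.00176).

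Genes that act on V segments did not pass. Of 10 factors of the octamer element and V promoters, 12 genes of V(D)J recombination and 14 of somatic hypermutation and class switching, 0 were lower and 0 higher with 2DG at 10 weeks, with median log2 changes of 0.06, -0.02 and 0.07 (edgeR). Over all genes tested 5.26% were called lower and 2.16% higher, so lists this short would hold few calls at those shares. At an unadjusted p under 0.05 there was 1 lower in the first of these lists, 3 lower in the second and 2 higher in the last. Over all genes 24.5% reached that p in either direction. DESeq2 called 0, 1 and 0, next to 2304 of 20232 genes. Ebf1 and Pax5 stood both in the first of these lists and among the mature B cell markers, and Pou2af1 both in the first and among the plasma cell markers. No gene of the plasma cell, constant region or J and D lists passed with edgeR in the other 2 comparisons. Of all 18542 genes, 1 passed for untreated 10 over 6 weeks and 24 for 2DG over 6 weeks. For untreated spleens at 10 over 6 weeks an unadjusted p under 0.05 was reached by 9 of 14, 6 of 8 and 5 of 6 tested genes of these 3 lists. All were higher, against 17.1% of all genes in either direction (edgeR). DESeq2 called 7, 3 and 4 of these lists, next to 682 of 18117 genes. In the same comparison 13 of 14 mature B cell markers had negative log2 changes (median -0.33), with 4 lower and 0 higher at an unadjusted p under 0.05. There were also 2 of 12 V(D)J recombination genes, 2 of 10 octamer and V promoter factors and 1 of 14 hypermutation or class switch genes lower at that p. None was higher, and 17.1% of all genes reached that p in either direction. No gene of these lists passed with edgeR, and DESeq2 called 2 V(D)J recombination genes lower and none of the others. For 2DG over 6 weeks an unadjusted p under 0.05 was reached by 12 of 14 plasma cell genes, all lower. Of 8 constant genes it was reached by 3 lower and 1 higher, and of 6 tested J and D segments by 5, all lower. Over all genes 16.9% reached it in either direction (edgeR). DESeq2 called 10 plasma cell genes lower, 2 constant genes lower and 1 higher, and 4 J and D segments lower in that comparison. At the same unadjusted p, 3 of 12 V(D)J recombination genes and 2 of 10 octamer and V promoter factors were lower there. Of 14 hypermutation or class switch genes 1 was higher. DESeq2 called 1 V(D)J recombination gene lower and none of the other 2 lists. Log2 changes were negative for 12 of 14 mature B cell and 9 of 10 T cell markers, against 50.5% of all genes, and 0 reached that p.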

How the data were processed

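The authors deposited 1 table of raw read counts per gene for the 12 libraries, whole numbers with no scaling. Per the labels' protocols, libraries were prepared after poly(A) selection with the Illumina TruSeq v2 kit, which does not mark strand. Bowtie2 2.2.0, RSEM 1.2.12 and GRCm38 are listed, per the submitters' processing notes, with no role or order. Reads of V segments changed by somatic mutation, or spanning the junction, may map less well to a reference, which can lower counts and shift them between relatives.

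Symbols, gene types, positions and sequences came from GENCODE M21 (GRCm38); 53620 of 53715 identifiers matched. Members, lists and naming rule were chosen with earlier results of these data known. The rule takes the 12 members with the highest mean CPM, up to 6 per direction and comparison with the smallest adjusted p, each library's most counted member, 5 members of known use, and from the other lists up to 4 passing genes each and all heavy chain constant genes. Members named outside it were chosen after their values were seen: Ighv4-1, Ighv1-34, Ighv1-49, Ighv1-71, those with positive changes, and those near a count limit.

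Counts were tested with edgeR 4.0.16 in R 4.3.3 (TMM, filterByExpr by group, robust quasi-likelihood fit of all 12 libraries), with Benjamini-Hochberg adjustment over 18542 genes; the test was checked on simulated counts. Log2 changes are fitted values, and SE is their size over the square root of F. Usage is a member's share of the Ighv counts of the library. Alternatives were DESeq2 1.42.0, other scalings and filters, fits of the compared groups, and each library left out. No pair of libraries agreed within sampling noise (chi-square per gene 10.5 to 85.2 over 18 pairs within groups, at a minimum of 20 counts per gene).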

Additional observations from a re-analysis of the deposited data

Results flagged for a closer look

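Values were looked at for single libraries far from the other 3 of their group (Dixon's test at 95%), over 120 groups of 4 values. Chance gives about 1 in 20 such groups, and 21 were found. Since single values are listed here after many were looked at, none is weighed.

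The summed Ighv level was 5490 CPM in untreated replicate 8 at 10 weeks, below the other 3 of its group at 11430 to 12168 CPM. In untreated spleens at 10 weeks 4 genes were high in 1 library: Ighv9-3 at 892 CPM in replicate 5, Ighv12-3 at 25.6 CPM in replicate 5, Ighv6-6 at 1345 CPM in replicate 6 and Ighv7-3 at 516 CPM in replicate 7. The Ighv7 family share of 4.62% in replicate 7 and the Ighv15 share of 0.260% in replicate 6 were high in the same group.

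With 2DG, replicate 9 was high for Ighv9-3 (51.8 CPM), Ighv1-9 (121 CPM) and Ighv1-19 (72.4 CPM). Replicate 12 was high for Ighv6-3 (328 CPM), and replicate 11 for the share of the Ighv13 family (1.56%).

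At 6 weeks, replicate 1 was high for Ighv3-6 (347 CPM) and Ighv6-3 (364 CPM), and replicate 2 for Ighv3-5 (100.5 CPM), Ighv5-17 (117 CPM) and the Ighv9 family share (14.5%). Replicate 3 was high for Ighv8-8 (148 CPM), Ighv7-3 (338 CPM) and the Ighv7 family share (9.53%), and low for Ighv12-3 (6.98 CPM).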

How the results depend on the processing

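The results that kept their direction or stayed within 1 SD under the alternatives run were the summed level, the effective number of genes, and the difference in usage between the members nearest to and farthest from the D segments. That difference was 19.0 points with 2DG, 9.20 untreated at 10 weeks and 15.7 at 6 weeks with members in 2 blocks, and 13.2, 9.82 and 13.6 points in 3 blocks. The log2 ratio of summed levels ran from -2.51 to -2.21 for 2DG over untreated at 10 weeks, 1.25 to 1.62 for untreated 10 over 6 weeks and -1.05 to -0.69 for 2DG over 6 weeks over all alternatives.

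The counts of called genes moved most. For 2DG against untreated spleens at 10 weeks the count of 41 ran from 13 to 55 with each library left out, and was 62 with DESeq2 (2304 of 20232 genes called), 41 with median-of-ratios factors (1379 of 18542) and with immunoglobulin genes removed from library sizes (1374 of 18542), 43 with a filter of 1 CPM in 4 libraries (1429 of 16256), 29 with no filter (1145 of 36604) and 28 with only the compared groups (581 of 18106), next to 1376 of 18542 genes called in the reported fit. For untreated 10 against 6 weeks the count of 0 ran from 0 to 31 with each library left out, the 31 being without replicate 8 (1563 of 18773 genes called), and was 32 with DESeq2 (682 of 18117). For 2DG against 6 weeks it ran from 0 to 1 with each library left out, and was 2 with only the compared groups (1367 of 18139) and 12 with DESeq2 (11 lower and 1 higher, 902 of 16001 genes called). The cause of these shifts was not tested.

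The log2 changes of 9 named genes that had not passed turned direction when a library was left out. Their ranges over these fits were as follows. For 2DG over untreated at 10 weeks Ighv12-3 ran from -1.42 to 0.29. For untreated 10 over 6 weeks Ighv9-3 ran from -0.22 to 1.89, Ighv7-3 from -1.31 to 1.96, Ighv12-3 from -1.33 to 0.18, Ighv7-1 from -0.84 to 0.48 and Ighv5-2 from -0.26 to 0.67. For 2DG over 6 weeks Ighv5-4 ran from -1.10 to 0.83, Ighv6-3 from -1.12 to 0.38, Ighv1-9 from -0.90 to 0.025, Ighv3-5 from -2.001 to 0.18 and Ighv5-2 from -0.71 to 0.31. Of the values of named genes under alternatives, 1106 kept direction and side of the threshold, 31 passed it, 27 no longer passed and 17 turned. Of those of family shares 267 stayed within 1 SD and 3 moved further, all with 2DG when each library's most counted gene was left out.

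No paired analysis was possible because the replicate numbers run from 1 to 12 across the groups and are shared by none. Counting error is small for abundant members, but 11 of 110 had too few counts to be tested, and with 4 libraries a group the spread between libraries limits the calls.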
